A study of Homo sapiens with 4 samples.

Results

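The mRNAs for mitochondrial respiratory complexes III and IV were followed across a polysome gradient of HEK293T cells, a human embryonic kidney line. Members were the genes whose symbol starts with UQCR, or with COX or COA followed by a digit, and that had at least 30 counts summed over the 4 libraries. This gave 34 genes out of 42 matching symbols, among 7527 genes that passed the same minimum and 19948 symbols in all. The rule uses the names and the summed count, and no ratio between libraries. The last members inside the minimum were COX18 with 34 counts and COX6A1 with 35, and the first outside it were COA8 with 24 counts, COX16 with 7 and COX6B2 with 1. COX4I2, COX6A2, COX7A1, COX7B2 and COX8C, which are isoforms of complex IV subunits, had 0 counts.

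Each of the 4 libraries is 1 pool of the gradient: free RNA from the top of the gradient, monosome, light polysome and heavy polysome. All 4 pools come from HEK293T cells given cycloheximide, an inhibitor that stops ribosomes in place during elongation, at 100 ug/mL for 10 min, and no other agent or genetic change is named in the labels. Capped and polyadenylated RNA was isolated from each pool and read directly as RNA by nanopore sequencing, without amplification. From free through monosome and light polysome to heavy polysome, the libraries hold 355509, 1329334, 1499401 and 1564531 counts on genes. The HEK293T markers VIM, KRT18, LIN28B, KRT8 and NEFM had 850, 285, 98, 51 and 40 counts over the 4 libraries, PAX2 had 6, and PTPRC of blood, ALB of liver and MYH7 of muscle had 0.

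Complex III, the cytochrome bc1 complex, passes electrons from ubiquinol to cytochrome c, and complex IV, cytochrome c oxidase, passes them on to oxygen. Both are built in the mitochondrial inner membrane from a few subunits encoded by mitochondrial DNA and many encoded in the nucleus, and the nuclear ones are made on cytosolic ribosomes and imported. Most of these nuclear subunits are very small proteins that surround the catalytic core, and complex IV needs in addition a set of assembly factors that make haem a and deliver copper. An mRNA with a short coding sequence has room for few ribosomes.

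The study concerns TOP mRNAs, which begin with a cytosine next to the cap followed by a run of pyrimidines. Annotated transcript starts were therefore searched for a C at the first base followed by at least 4 bases that are each C or T, on the strand of the gene. RefSeq gave a start for 30 of the 34 members (GRCh38.p14). Such a start was found for 4 members, 13.3% of those matched, against 8.50% of the 6131 tested genes with an entry and 4.07% of all 35116 entries. The 4 are COX4I1 (chr16:85799680-85799709, + strand), COX7A2L (chr2:42361203-42361232, - strand), COX7C (chr5:86617926-86617955, + strand) and UQCRH (chr1:46303683-46303712, + strand). COX17 (chr3:119677392-119677421, - strand) and UQCRC1 (chr3:48609632-48609661, - strand), the members at the low and high extremes of the heavy to light polysome ratio, are shown for contrast. Each window runs from 15 bases before the annotated start through the first 15 bases of the transcript, and capitals mark the run of pyrimidines that begins with C at the start.
COX4I1: cggcgcggccttgctCTCTTCCggtcgcgg
COX7A2L: ccggggaggcggggtCCTTCTCTggggcgg
COX7C: ccatttcccatctttCTTTTCagtccttgc
UQCRH: tgacccttacaagtcCTTCTTgatcctgaa
COX17: cttcctgtactttttagagcgactgccgga
UQCRC1: ctacgcttgcgcggcgcaacagggccgact
COX17 begins with A and UQCRC1 with G, so neither window has capitals. COX7A2L and COX17 each have a further annotated start, neither of them with such a run. COX11, COX6C, UQCRB and UQCRHL had no entry. A match of letters is a description of the annotated start, which may not be the one used in these cells.

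Every pool has a single library, so there is no replicate spread and no p-value. Levels are CPM, a gene's counts scaled to the same total in every library. Ratios are log2 ratios of shares of 2 libraries after adding 0.5 to each count, from which the median over all 7527 tested genes, called the median gene below, was subtracted. In plain shares the median gene was 8.26-fold higher in the heavy polysome library than in the free library, 2.41-fold higher in monosome than in free, 1.98-fold higher in light polysome than in monosome and 1.51-fold higher in heavy than in light polysome. Ranges after a ratio are 95% counting intervals. A gene was counted as higher or lower when it lay at least 2-fold from the median gene and its interval left the median gene out. Alternatives took a pseudocount of 1, a minimum of 10 or 100 summed counts, or TMM or DESeq2 normalization factors as the centre in place of the median gene, or thinned the deeper libraries to the depth of the free one. Because values are shares, the amount of RNA in each pool, which the sources used here do not give, does not enter them.

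Most complex III and IV mRNAs were concentrated in the monosome and light polysome libraries, while most tested genes were highest in the heavy polysome library. The highest CPM was in the free library for 0 members, in monosome for 10, in light polysome for 15 and in heavy polysome for 9. Over all tested genes these counts were 98, 560, 2256 and 4613, and 61.3% were thus highest in heavy polysome. As a mean gradient position, which weights a gene's CPM by 0 in free, 1 in monosome, 2 in light polysome and 3 in heavy polysome, the members had a median of 1.65 and all tested genes a median of 2.25. The members spanned 1.32 to 2.75. At the high end COX15, with 48 counts in all and 0 in free, had a position above that of 97.6% of tested genes, and UQCRC1 above 91.5%. The position is built from shares and does not give the fraction of an mRNA bound by polysomes.

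**Figure D1:**
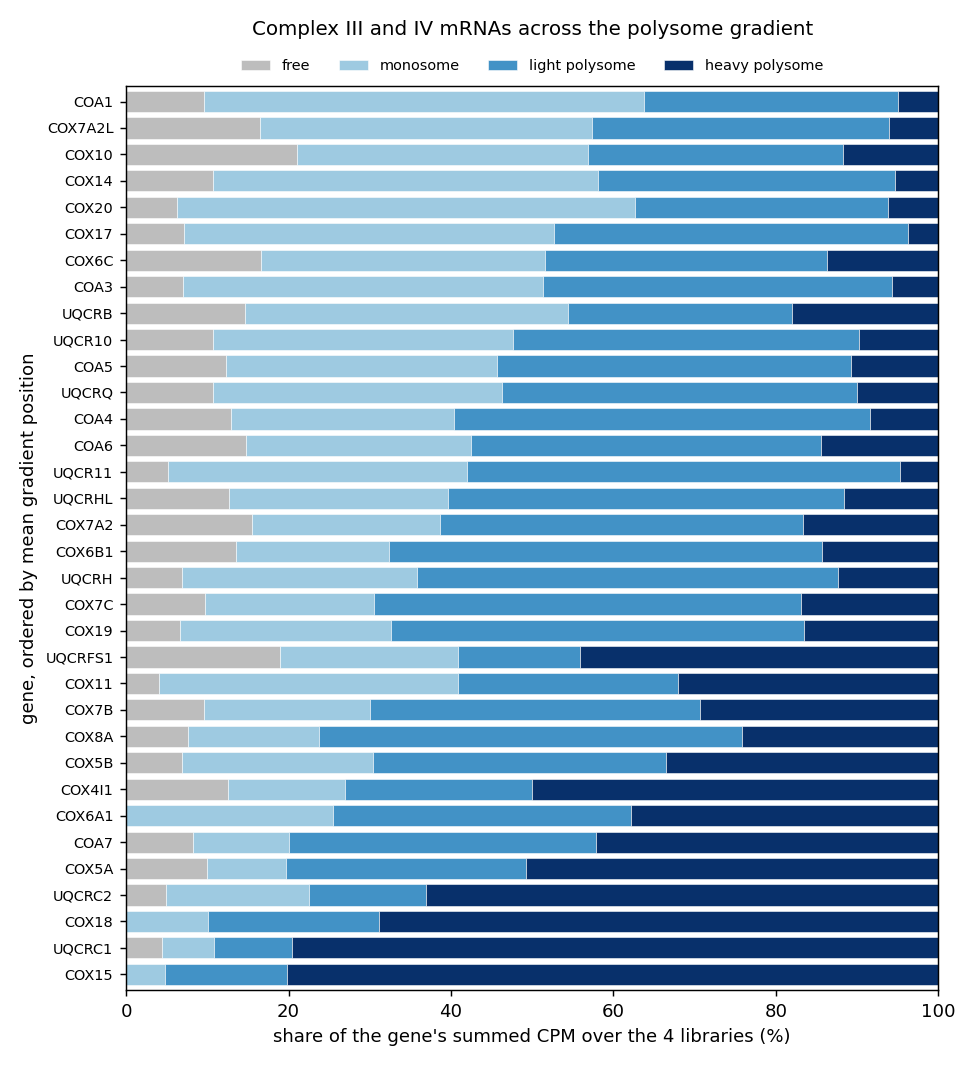
Each bar is 1 of the 34 mRNAs, divided by the share of its summed CPM found in the free, monosome, light polysome and heavy polysome libraries (%), with 1 library per pool and genes ordered by mean gradient position. COA1 at the top has 4.97% in heavy polysome, and COX15 at the bottom 80.2%.

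Summed over genes by role, the core of complex III was most represented in heavy polysome and the other groups in the middle of the gradient. The 3 core mRNAs took 0.0160% of the free library (Clopper-Pearson interval 0.0121 to 0.0208), 0.0220% of monosome, 0.0183% of light polysome and 0.0849% of heavy polysome (0.0804 to 0.0896). The 5 small complex III subunits counted without UQCRHL took 0.108%, 0.377%, 0.498% and 0.132% in the same order. The 10 structural subunits of complex IV took 0.154%, 0.265%, 0.554% and 0.385%. The 14 assembly factors took 0.0633%, 0.269%, 0.276% and 0.0656%. The core share was thus highest in heavy polysome, whereas the small complex III subunits and the complex IV structural subunits peaked in light polysome. For the assembly factors the intervals in monosome (0.261 to 0.278) and light polysome (0.268 to 0.285) overlap, so neither pool stands out. All 34 genes together took 0.419%, 1.11%, 1.62% and 0.729%, and without UQCRHL 0.359%, 0.979%, 1.39% and 0.675%.

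**Figure D2:**
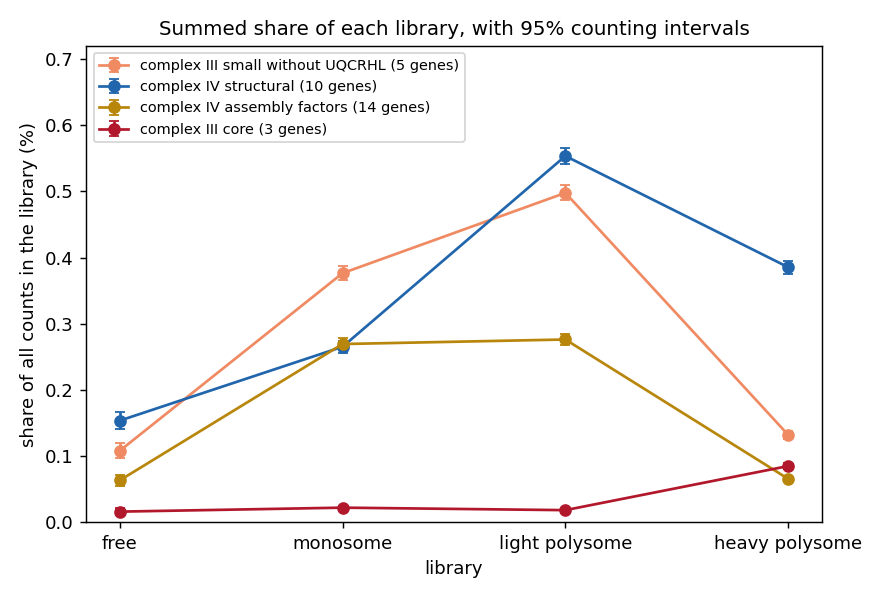
Summed share of each library (% of all counts, y axis) in the 4 pools from free to heavy polysome, for 4 groups of members; points are single libraries and bars are 95% Clopper-Pearson intervals, which cover counting error only. The core line lies lowest except in heavy polysome, where at 0.0849% it stands above the assembly factors at 0.0656%.

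Heavy polysomes were compared with light polysomes to ask which of these mRNAs reach the most loaded pool. Against the median gene, 23 of the 34 members counted as lower in heavy polysome, 3 as higher and 8 as neither. Over all tested genes 28.3% counted as lower and 26.0% as higher. The members' median was -2.09 (range -4.12 to 2.45) and 27 of 34 lay below the median gene. The 3 higher members were UQCRC1, UQCRC2 and COX15, which code for 480, 453 and 410 residues.

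The 3 core subunits of complex III all had their highest level in heavy polysome. UQCRC1 (chr3:48599002-48610976), a core protein facing the matrix, had 22.5 CPM in free, 33.1 in monosome, 49.4 in light polysome and 408 in heavy polysome. Its level was low in the first 3 pools and high in the last, with 639 of its 765 counts there, and the heavy to light ratio was 2.45 (2.11 to 2.83). UQCRC2 (chr16:21952660-21983660), the second core protein, had 11.3, 40.6, 33.3 and 146 CPM. It too was highest in heavy polysome, with monosome slightly above light polysome, and its ratio was 1.53 (1.09 to 2.01). UQCRFS1 (chr19:29205321-29213541), the Rieske iron-sulfur protein, had 127, 147, 100.0 and 295 CPM. It was lowest in light polysome and had 18.9% of its summed CPM in the free library, the second highest value of all members. Its heavy to light ratio of 0.97 (0.70 to 1.25) was just short of 2-fold, and it passed 2-fold at 1.16 with a minimum count of 100, at 1.03 with the TMM centre and at 1.01 with the DESeq2 centre or after thinning.

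The small complex III subunits were all lower in heavy than in light polysome. UQCRQ (chr5:132866560-132868031), a small membrane subunit beside cytochrome b, had 304 CPM in free, 1009.5 in monosome, 1242 in light polysome and 284 in heavy polysome. UQCR10 (chr22:29767369-29770413), a small membrane subunit, had 264, 914, 1054 and 240.3 CPM. Both were abundant in the 2 middle pools and about as low in heavy polysome as in free, and each had a heavy to light ratio of -2.72 (-2.87 to -2.57 for UQCRQ, -2.89 to -2.56 for UQCR10). UQCRH (chr1:46303631-46316776), the acidic hinge protein that helps cytochrome c dock, had 301, 1258, 2262 and 538 CPM and a ratio of -2.66 (-2.77 to -2.55). UQCR11 (chr19:1597172-1605490), the smallest member at 56 residues, had 1, 27, 44 and 4 counts and a ratio of -3.96 (-6.05 to -2.65). UQCRB (chr8:96225920-96235634), known as the ubiquinone-binding protein, was the highest of this group in heavy polysome relative to light. It had 208, 563, 391 and 256 CPM with its peak in monosome, and a ratio of -1.20 (-1.39 to -1.02).

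UQCRHL (chr1:15807169-15809348) is a near-identical copy of UQCRH at another place on chromosome 1, and the values of both genes are uncertain. UQCRHL had 1684 counts in monosome, 3439 in light polysome and 855 in heavy polysome, which exceed those of UQCRH by 12, 47 and 14 counts. In the free library it had 212 counts against 107 for UQCRH. The sources used here do not say how the authors counted reads that align to both places. Leaving UQCRHL out was an alternative chosen after seeing the data. The members' median was then -2.01 for heavy against light polysome and -2.75 for heavy polysome against free. Dropping 1 gene can change a count of members by at most 1, so the counts say nothing of how its reads were assigned.

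The structural subunits of complex IV differed among themselves, and COX4I1 and COX5A stood out as highest in heavy polysome. COX4I1 (chr16:85798633-85807044), the subunit through which ATP inhibits the enzyme, had 284 CPM in free, 325 in monosome, 521 in light polysome and 1133 in heavy polysome. COX5A (chr15:74919791-74938168), a subunit on the matrix side, had 152, 149.7, 454 and 777 CPM. Both lay close to the median gene in this step, with heavy to light ratios of 0.53 (0.41 to 0.65) for COX4I1 and 0.19 (0.05 to 0.32) for COX5A. COX5B (chr2:97646040-97648383), the zinc-binding subunit, had 101, 351, 535 and 498 CPM and a ratio of -0.69 (-0.84 to -0.55), which is nearer to the median gene than 2-fold.

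The remaining structural subunits other than COX6A1 peaked in light polysome or monosome. COX7C (chr5:86617904-86620962), a single-span membrane subunit, had 329, 711, 1794 and 575 CPM and a heavy to light ratio of -2.23 (-2.34 to -2.12). COX6B1 (chr19:35648223-35658861), which links the monomers of the dimeric enzyme on the intermembrane side, had 253, 351, 994 and 267 CPM and a ratio of -2.48 (-2.65 to -2.33). In both, light polysome stood well above each of the other pools. COX7A2, the form of subunit VIIa found in most tissues, lay at -2.01 (-2.20 to -1.83) and COX6C (chr8:99873200-99894062), a small membrane subunit, at -1.94 (-2.21 to -1.67). COX7B, another small membrane subunit, was nearer to the median gene, with 87.2, 185, 368 and 267 CPM and a ratio of -1.06 (-1.24 to -0.87), which fell short of 2-fold with a minimum count of 100 (-0.86) and with the TMM centre (-0.996). COX8A, the smallest of the structural subunits after COX7C, had 52 counts in all and a ratio of -1.68 (-2.74 to -0.74), which was -1.06 after thinning and no longer counted as lower. COX6A1, with 0, 8, 13 and 14 counts, could not be placed at -0.55 (-1.74 to 0.66).

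COX7A2L (chr2:42333546-42425088), a relative of COX7A2 that joins complexes III and IV into supercomplexes, had a mean gradient position of 1.32, against 1.63 for COX7A2. It had 183 CPM in free, 454 in monosome, 405 in light polysome and 67.8 in heavy polysome, against 199.7, 300.1, 578 and 216 CPM for COX7A2. The free library held a similar part of their summed CPM, 16.5% for COX7A2L and 15.4% for COX7A2. COX7A2L was thus higher in monosome than in any other pool and lowest in heavy polysome, where COX7A2 was near its free level. The heavy to light ratio of COX7A2L was -3.16 (-3.48 to -2.87) and that of COX7A2 -2.01 (-2.20 to -1.83), and the intervals do not overlap. Their coding lengths are 114 and 115 residues in the annotated form used for each gene. Both genes have a further annotated start, and which form these reads carry was not tested.

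The 2 enzymes of haem a synthesis stood at opposite ends. COX10 (chr17:14069496-14208677), the haem farnesyltransferase that makes haem o, had 30.9 CPM in free, 52.7 in monosome, 46.0 in light polysome and 17.3 in heavy polysome. COX15 (chr10:99711844-99732100), which oxidises haem o to haem a, had 0, 2, 7 and 39 counts. COX10 was lowest in heavy polysome and COX15 had most of its counts there. Their heavy to light ratios were -1.99 (-2.70 to -1.34) for COX10 and 1.74 (0.65 to 3.23) for COX15, although their coding lengths of 443 and 410 residues are similar. COX10 had 21.1% of its summed CPM in the free library, the highest value of all members, from 11 counts.

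Among the copper factors, the lowest heavy to light ratio of all 34 members belonged to COX17 (chr3:119654513-119677454), the copper chaperone of the intermembrane space. It had 109.7 CPM in free, 707 in monosome, 674 in light polysome and 58.2 in heavy polysome. Its level was similar in the 2 middle pools and lowest in heavy polysome, 17.4-fold below the median gene relative to light polysome (log2 -4.12, -4.45 to -3.82). COA6, another copper-binding factor, had 90.0, 169, 263 and 88.2 CPM and a ratio of -2.16 (-2.46 to -1.88), and COX19, which works with COX11, lay at -2.19 (-2.82 to -1.62). COX11 (chr17:54951902-54968785), the membrane-bound protein that inserts copper into subunit 1, had 14.1, 130.1, 95.4 and 113 CPM. It was nearly level over the 3 ribosome-bound pools and low in free, with a ratio of -0.35 (-0.67 to -0.02).

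Of the other 8 assembly factors, 6 counted as lower in heavy than in light polysome. COA3 (chr17:42795147-42798704) and COX14 (chr12:50111979-50120457), which together accompany newly made subunit 1, lay at -3.49 (-3.84 to -3.17) and -3.35 (-3.87 to -2.89). COA3 had 67.5, 425, 411 and 55.0 CPM, and COX14 had 53.4, 238, 183 and 26.8 CPM. Both partners had most of their reads in the 2 middle pools. COA1 (chr7:43608456-43729717), an early factor for subunit 1, had 59.1, 335, 193 and 30.7 CPM and a ratio of -3.23 (-3.71 to -2.80), and COA4 and COA5, twin-cysteine proteins of the intermembrane space, lay at -3.20 (-3.47 to -2.95) and -2.60 (-3.35 to -1.95). COX20 (chr1:244835322-244845057), a chaperone of subunit 2, had 25.3, 229, 127 and 24.9 CPM and a ratio of -2.92 (-3.47 to -2.43). COA7, a longer factor, lay at -0.43 (-0.84 to -0.03). COX18, a translocase that moves the tail of subunit 2 across the membrane, had 0, 3, 7 and 24 counts, and at 1.06 (-0.13 to 2.58) its interval included the median gene.

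**Figure D3:**
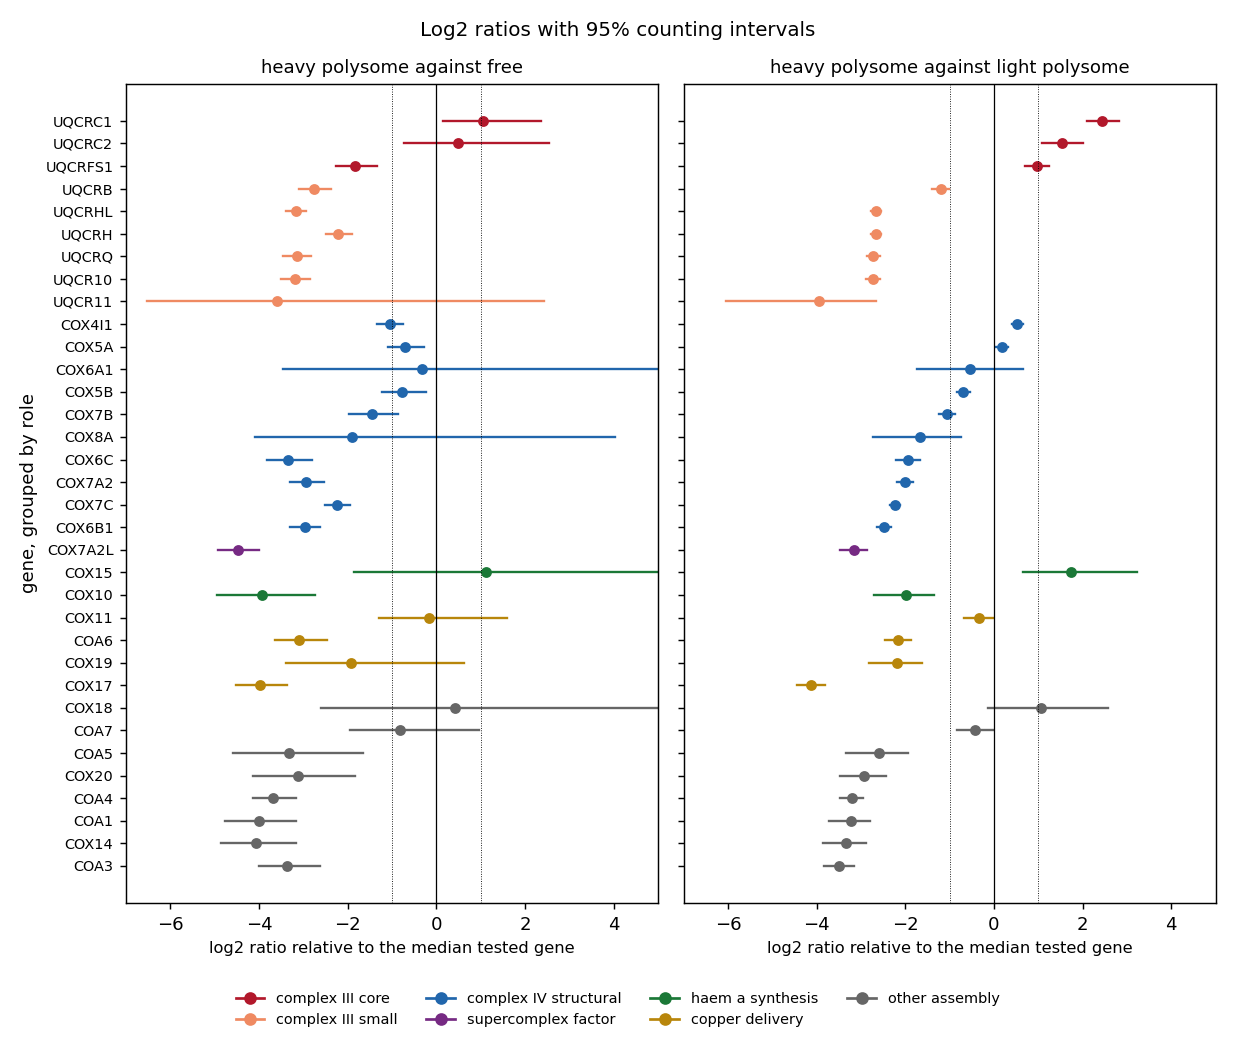
Log2 ratios of shares relative to the median tested gene (x axes) for heavy polysome against free and heavy against light polysome, 1 row per member, grouped and coloured by role; points are single-library ratios, lines are 95% counting intervals (those of COX6A1, COX15 and COX18 run past the left panel), and dotted lines mark 2-fold. In the right panel all 6 small complex III subunits lie below -1 and the 3 core subunits lie above 0.

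Heavy polysome was compared with free RNA to set the ends of the gradient against each other. Here 22 members counted as lower, 1 as higher and 11 as neither, where 15.3% of all tested genes counted as lower and 6.36% as higher. The members' median was -2.85 (range -4.48 to 1.12), while in plain shares, without subtracting the median gene, it was 0.20. With genes lacking a count in free set at 3 counts, the median was -1.82 and 19 members counted as lower. This comparison shares its heavy polysome library with the one before, so both see the same reads in that pool. The free library is the limit: it was the shallowest, 2348 of the 7527 tested genes had no count in it, and the members with at least 10 counts numbered 33 in heavy polysome and 22 in free.

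The member with the lowest heavy polysome to free ratio was COX7A2L at -4.48 (-4.94 to -4.01), 22.3-fold below the median gene. With genes lacking a count in free set at 3 counts it was 10.2-fold below. COX14 lay at -4.06 (-4.85 to -3.17), COA1 at -4.01 (-4.76 to -3.18), COX17 at -3.97 (-4.52 to -3.38) and COX10 at -3.93 (-4.95 to -2.73). These 5 intervals overlap, so their order is not resolved. UQCRC1 was the member that counted as higher, at 1.05 (0.15 to 2.35), from 639 counts in heavy polysome and 8 in free, but not with a minimum count of 100, where it lay at 0.93. COX5A at -0.70 (-1.08 to -0.27) and COX5B at -0.77 (-1.23 to -0.22) lay within 2-fold. COX4I1 at -1.06 (-1.34 to -0.75) lay just beyond it, but fell within it with a pseudocount of 1 (-0.52), a minimum count of 10 (-0.63), the TMM centre (-0.57) and the DESeq2 centre (-0.71), and lay at 0.080 with the floor of 3 counts. COX7B at -1.45 (-1.96 to -0.86) also fell within 2-fold with a pseudocount of 1 (-0.94), the TMM centre (-0.97) and the floor (-0.32), and UQCRFS1 at -1.84 (-2.27 to -1.35) with the floor (-0.70). COX15, COX18 and COX6A1 had no count in free. Against a floor of 3 counts there, their heavy polysome shares were at least 2.95-fold, 1.82-fold and 1.06-fold higher in plain shares, which does not place them relative to the median gene.

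Monosome was set against free RNA to see the step from no ribosome to 1. In this step 5 members counted as higher and 3 as lower, which is 14.7% and 8.82% of the 34, where 5.13% and 4.57% of all tested genes did. The median was -0.06 (range -1.30 to 1.84), and 17 of 34 members lay below the median gene. All 5 higher members were assembly factors: COX20 at 1.84 (0.97 to 3.06), COX11 at 1.81 (0.69 to 3.58), COX17 at 1.40 (0.96 to 1.92), COA3 at 1.36 (0.80 to 2.04) and COA1 at 1.20 (0.61 to 1.94). COX20 rested on 305 counts in monosome and 9 in free, and COX17 on 940 and 39. The 3 lower members were COX5A at -1.30 (-1.73 to -0.83), COX4I1 at -1.08 (-1.39 to -0.75) and UQCRFS1 at -1.07 (-1.53 to -0.55). These had nearly the same CPM in monosome as in free, such as 149.7 in monosome and 152 in free for COX5A. With genes lacking a count in free set at 3 counts, 10 members counted as higher and 0 as lower. The 3 lower members were also within 2-fold with a pseudocount of 1, and COX4I1 and UQCRFS1 with a minimum count of 10 and with the TMM and DESeq2 centres. COA1 was within 2-fold after thinning, at 0.98.

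Light polysome was set against monosome to see the gain of a few ribosomes. No member counted as higher and 11 counted as lower, where 14.9% of all tested genes counted as higher and 16.3% as lower. With the deeper libraries thinned to the depth of the free library, COX5A counted as higher at 1.04, COX6C as lower at -1.22 and COX7A2L no longer as lower at -0.89. The members' median was -0.44 (range -1.84 to 0.67), and in plain shares it was 0.55. Assembly factors made up 7 of the 11: COX20 at -1.84 (-2.11 to -1.57), COA1 at -1.78 (-1.999 to -1.56), COX11 at -1.43 (-1.76 to -1.10), COX14 at -1.36 (-1.60 to -1.12), COX10 at -1.18 (-1.68 to -0.68), COX17 at -1.05 (-1.18 to -0.92) and COA3 at -1.03 (-1.20 to -0.86). With a minimum count of 10, COX17 at -0.99 and COA3 at -0.96 were within 2-fold. The others were UQCRFS1 at -1.53 (-1.85 to -1.22), UQCRB at -1.51 (-1.67 to -1.35), UQCRC2 at -1.27 (-1.85 to -0.69) and COX7A2L at -1.15 (-1.31 to -0.98). COX5A, at 0.61 (0.39 to 0.85), and COX6B1, at 0.52 (0.37 to 0.67), lay above the median gene but within 2-fold.

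Coding length varied with these positions. The members code for 56 to 480 residues with a median of 107.5, and GENCODE release 29 gave a coding length for 7464 of the 7527 tested genes. Under 100 residues, all 16 members counted as lower in heavy than in light polysome, as did 95.8% of the 189 other tested genes of that length, and the medians were -2.63 for members and -2.62 for the others. From 100 to under 200 residues the medians were -1.60 for 10 members and -1.39 for 1022 others, and 60.0% of members and 62.5% of others counted as lower. From 200 to under 400 residues they were 0.31 for 4 members and 0.11 for 2498 others, and from 400 residues 1.64 for 4 members and 0.39 for 3721 others. In this ratio the medians of members and other genes were closest in the shortest class, which holds 16 of the 34, and furthest apart in the longest. In other comparisons the members of 100 to under 200 residues lay further from genes of their length. For heavy polysome against free their median was -2.85, against -1.47 for the others, with 70.0% and 45.8% lower. For light polysome against monosome it was -0.76, against 0.08 for the others, with 50.0% and 17.2% lower. In that step the members of 200 to under 400 residues also lay below the others, at -0.74 against 0.11. The same held from 400 residues, at -0.80 against -0.06. Under 100 residues the members lay above the others, at -0.24 against -0.66, with 12.5% and 34.4% lower.

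**Figure D4:**
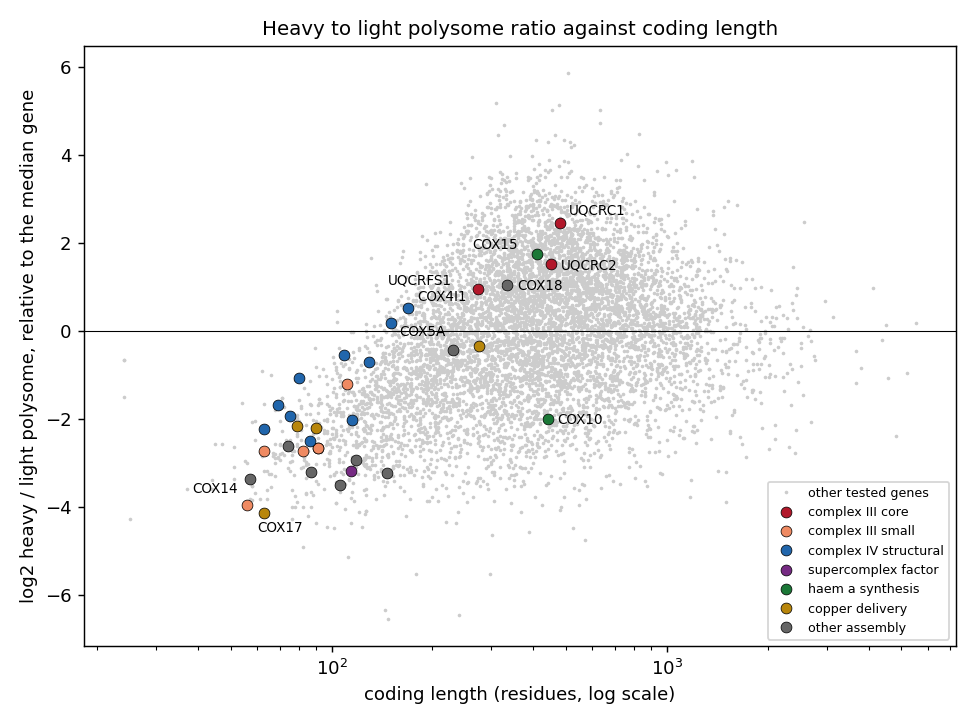
Heavy to light polysome log2 ratio relative to the median gene (y axis) against coding length in residues (x axis, log scale), for 34 members coloured by role and all other tested genes with a coding length in grey; each point is 1 gene from single libraries. The members below 100 residues all lie below -1, UQCRC1 at 480 residues lies at 2.45, and COX10 at 443 residues lies at -1.99.

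Across the 34 members the heavy to light ratio had a Pearson r of 0.79 with log10 coding length and a Spearman rho of 0.68, and across the 7464 tested genes these were 0.35 and 0.33. The members' r was 0.63 for mean gradient position and 0.66 for heavy polysome against free. It was -0.29 for monosome against free and -0.10 for light polysome against monosome. The genes share the same libraries, so they are not independent points. Within a length class some members still stood far from the others. COX4I1 and COX5A were above 93.5% and 89.8% of the other genes of 100 to under 200 residues in heavy to light ratio, and COX7B was above 95.2% of those under 100. In the other direction COX17 was above 3.17% of genes under 100 residues, COA3 above 3.13% and COX7A2L above 6.46% of genes of 100 to under 200, and COX10 above 6.07% of genes of 400 or more. COX15, of nearly the length of COX10, was above 84.0% of that same class.

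The members with a C start and pyrimidine run, whose windows are printed above, did not share a position. COX4I1 had its highest level in heavy polysome, COX7C and UQCRH in light polysome and COX7A2L in monosome. The median heavy to light ratio was -2.45 for these 4 and -2.09 for the other members with an entry, and over all tested genes with an entry it was -0.38 with such a start and 0.06 without.

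The genes that work with complexes III and IV but carry other names were more evenly spread, and many of them are longer. Of 9 complex III partners, all tested, 2 counted as lower in heavy than in light polysome and 0 as higher, where 28.3% and 26.0% of all tested genes did. CYC1, the haem-carrying cytochrome c1 of the complex III core, had 22.5 CPM in free, 66.2 in monosome, 180.1 in light polysome and 529.9 in heavy polysome. Like UQCRC1 it was highest in heavy polysome, with a heavy to free ratio of 1.43 (0.53 to 2.73) and a heavy to light ratio of 0.96 (0.77 to 1.17). CYCS, cytochrome c itself, had 253, 254, 761 and 886 CPM. The small assembly factors UQCC2 at -1.67 (-1.87 to -1.46) and UQCC3 at -1.63 (-1.91 to -1.37) were the 2 lower ones. TTC19, which helps clear fragments of the Rieske protein, stood apart with 2054 counts in free, 100 in monosome, 54 in light polysome and 107 in heavy polysome. It thus had 97.0% of its summed CPM in the free library. Its exons overlap those of ZSWIM7 on the opposite strand, and the part of that overlap was not tested.

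Of 26 complex IV partners listed, 19 were tested, and 6 counted as higher in heavy than in light polysome and 8 as lower. That is 31.6% higher and 42.1% lower, where 26.0% and 28.3% of all tested genes did, so the higher share is near that of all tested genes. The higher ones were LRPPRC, which stabilises mitochondrial mRNAs, at 2.32 (0.82 to 4.88), the copper chaperone SCO1 at 2.26 (1.63 to 3.02), TACO1, the translation activator of subunit 1, at 1.80 (1.37 to 2.28), FASTKD1 at 1.73 (0.32 to 3.86), the inner-membrane insertase OXA1L at 1.29 (0.90 to 1.71) and the ferredoxin reductase FDXR at 1.18 (0.20 to 2.41). The lower ones included the assembly proteins HIGD2A at -3.66, SMIM20 at -2.83, HIGD1A at -2.73, CMC1 at -2.64 and SURF1 at -1.14. The rest of them were CEP89 at -1.31, the complex IV subunit NDUFA4 at -1.70 and the RNA-binding protein SLIRP at -1.55. LRPPRC and its binding partner SLIRP were thus on opposite sides, at 1394 and 109 residues, with 35 counts for LRPPRC in all. The complex IV partners below the minimum were CMC2 with 25 counts, FASTKD5 with 19, PET100 and STEAP2 with 2 each, and PET117 and FDX2 with 0. The symbol FASTKD4 was not found in the table.

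Taken as whole sets, other mitochondrial mRNA groups lay nearer to the median gene in the same ratio. The heavy to light median was -2.09 for the 34 members, -0.67 (range -2.97 to 2.59) for 32 complex I subunits, -1.18 (range -3.35 to 2.49) for 19 ATP synthase genes and 0.00 (range -3.25 to 3.05) for 73 mitochondrial ribosomal proteins. Over all tested genes 28.3% counted as lower and 26.0% as higher. Of the ATP synthase genes 11 counted as lower and 4 as higher, and of the complex I subunits 15 and 4. NDUFA4, a complex IV subunit named as one of complex I, was left out of them after seeing the data, and with it the median of the 33 genes was -0.998. In the class under 100 residues the medians were -2.63 for the 16 members and -2.14 for 5 complex I subunits, and each of these 21 genes counted as lower. From 100 to under 200 residues they were -1.60 for 10 members and -1.05 for 19 complex I subunits. The sets also differ in make-up, as the members include assembly factors and the complex I set leaves out those named NDUFAF. By role, the medians were -2.66 for 9 complex III subunits, -1.37 for 10 complex IV structural subunits and -2.40 for 14 assembly factors. The complex IV structural subunits thus lay near the ATP synthase genes. The differences between the groups were not tested.

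Several members overlap or resemble other genes. The exons of COX6A1, COX8A, COX15 and UQCR11 overlap on the same strand those of a further protein-coding annotation that had 0 counts, over 10.9% to 34.5% of their exon bases, and these 4 are among the 5 members with fewest counts. COX17 overlaps POPDC2, which had 2 counts, and COX19 overlaps ADAP1, which had 15. COA1, COA3, COA4, COX4I1, COX11, COX20 and UQCRQ overlap a coding gene on the opposite strand, and the sources used here do not say whether counting used strand. Several members also have genes named as their pseudogenes in the annotation, 17 for COX6C, 7 for COX6B1 and 6 for COX5B. Without the 6 members with a same-strand overlap, an alternative chosen after seeing the data, the members' median was -2.09 for heavy against light polysome and -2.96 for heavy polysome against free. The part of the opposite-strand overlaps and of the named pseudogenes was not tested.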

How the data were processed

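The authors deposited unscaled whole-number counts of reads on each gene for 4 libraries, 1 per gradient pool. The submitters' processing notes name minimap2 2.15, featureCounts, Subread 1.6.2 and the build hg38. The sources used here do not give the annotation release, the use of strand or the handling of reads that align to several places.

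Genes with 30 or more counts over the 4 libraries were tested. Each log2 ratio is of shares of library totals after adding 0.5 to each count, minus the median over tested genes, with the exact conditional binomial 95% interval (Clopper-Pearson), which covers counting error only. Since a pool has 1 library, edgeR's quasi-likelihood test could not be fitted for want of residual degrees of freedom. A gene without a count in one library was set against a floor of 3 counts, which is 8.44 CPM in free and 1.92 CPM in heavy polysome.

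Loci and coding lengths are from GENCODE release 29 on hg38. Protein lengths from RefSeq were intended and were replaced by these coding lengths. Start windows are from RefSeq (GRCh38.p14). The named genes are all members, the partners in the lists given in the text, and copies or overlapping genes, which were named after their values were seen. Members and lists were chosen with earlier results of these data known. Alternatives were minimum counts of 10 and 100, a pseudocount of 1, thinning to the shallowest library, centring by library totals alone, by edgeR 4.0.16 (TMM) or by DESeq2 1.42.0 (size factors), and raising genes that lack a count to the floor. The steps were tested on simulated data. Python 3.11.15, numpy 2.4.6, pandas 2.3.3, scipy 1.17.1, matplotlib 3.10.9 and R 4.3.3 were used.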

Additional observations from a re-analysis of the deposited data

How the results depend on the processing

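Of 120 summary values under the alternatives (medians of the members and counts of higher and lower members in the 4 comparisons), 100 kept their direction and lay within the limits set for a change, 18 moved and 2 reversed. Of these 20 changes, 10 came from using library totals alone, which leaves the shift of the median gene in every ratio and so raises all genes of a comparison alike. For heavy polysome against free, the median of the members was then 0.20, with 11 higher and 2 lower, and 15 of the 30 members below the median gene had a positive ratio. Among those counted as higher or lower under either setting these were COX11 at 2.87, COX5A at 2.34, COX5B at 2.28, COA7 at 2.23, COX4I1 at 1.99, COX7B at 1.59, UQCRFS1 at 1.21, UQCRH at 0.83, COX7C at 0.80, UQCRB at 0.29, COX7A2 at 0.11 and COX6B1 at 0.071. For monosome against free the median was 1.20, with 21 higher and 0 lower, and 16 of the 17 members below the median gene had a positive ratio. Among those counted as higher or lower under either setting these were COX7C at 1.11, UQCRHL at 1.08, COA4 at 1.08, COX6C at 1.07, COX7B at 1.07, UQCRFS1 at 0.20 and COX4I1 at 0.19. For light polysome against monosome the median was 0.55, with 5 higher and 0 lower, and for heavy against light polysome 6 members were higher.

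With genes lacking a count at the floor, 2 members were higher and 19 lower for heavy polysome against free, the median was -1.82 and COX4I1 lay at 0.080. The monosome against free median was then 0.60, with 10 higher and 0 lower. The 3 lower members of monosome against free became 0 with a pseudocount of 1, and 1 with a minimum count of 10, with the TMM centre and with the DESeq2 centre. The cause was not tested. At a minimum count of 100, 0 members were higher for heavy polysome against free, and after thinning, 1 was higher for light polysome against monosome. Leaving out UQCRHL or the members with same-strand overlaps moved no summary value past these limits. Dropping UQCRHL alone can change a count by at most 1. No paired analysis was possible because each pool has 1 library and no replicate numbers. Depth limits the free library most, so ratios against it are wide for COX15, COX18, COX6A1, COX8A and UQCR11. Every ratio rests on single libraries, and its interval says nothing of the spread between cultures or gradients.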

Other observations

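Several members belong to a family with paired cysteine motifs, small proteins folded by disulfide relay in the intermembrane space, and a list of 23 such human genes was written after values had been seen. Of these, 21 were tested, among them the members COX17, COX19, COX6B1, UQCRH, COA4, COA5 and COA6. In heavy against light polysome 18 counted as lower, 0 as higher and 3 as neither, and their median was -2.19. Over all tested genes 28.3% counted as lower and 26.0% as higher. Of tested genes that are no members, 95.8% of those under 100 residues and 62.5% of those of 100 to under 200 counted as lower. The 21 genes code for 63 to 235 residues, so each of these rates fits only part of the list. The 3 were NDUFS5 at -0.998 (-1.12 to -0.87), CHCHD3 at -0.72 (-0.78 to -0.66) and CHCHD6 at 0.04 (-0.31 to 0.40). CHCHD3 and CHCHD6, subunits of the complex that shapes cristae, code for 227 and 235 residues and are the longest of the 21. CHCHD3 had 923 counts in free, 8651 in monosome, 4621 in light polysome and 4408 in heavy polysome. CHCHD4, the oxidoreductase that folds these proteins, lay at -1.99 (-2.34 to -1.65). The list was chosen with results in view, shares 7 genes with the members and consists mostly of short coding sequences, so it adds no independent evidence.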
